A study of Mus musculus with 8 samples.

Results

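The constitutive proteasome subunits were the genes whose symbols are Psma1 to Psma7, Psmb1 to Psmb7, Psmc1 to Psmc6 and Psmd1 to Psmd14. The choice by symbol found 34 genes among the 23845 of each table, and all 34 had footprints in every Ribo-seq library. The samples were METTL5 knockout (KO) and wild-type (WT) mouse embryonic stem cells at passages 5 to 10, with 2 RNA-seq and 2 Ribo-seq libraries per genotype. Ribo-seq counts the mRNA fragments that ribosomes protect, and RNA-seq was made from total RNA. METTL5 is the enzyme that methylates an adenosine of 18S ribosomal RNA. Replicates are named biological in the series text, and the number of KO clones is not stated. The p-values therefore cover only the spread among these libraries, which may be technical.

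The proteasome is the machine that degrades proteins tagged with ubiquitin. Its barrel-shaped core particle has outer rings of alpha subunits, which form the gate, and inner rings of beta subunits, of which a few cut peptide bonds. The 19S regulatory particle sits on the barrel, with a base of ATPases and scaffolds that unfolds the substrate and a lid that removes the ubiquitin chain. Human embryonic stem cells are known for high proteasome activity. When proteasome activity is short, the transcription factor NRF1 (gene Nfe2l1) is known to raise the subunit genes together through antioxidant response elements.

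Promoter windows from RefSeq (build GRCm38.p6) were matched by symbol for 28 of the 34 genes. The 250 bases before the annotated start were searched on both strands for TGACNNNGC, the antioxidant response element. It was found in 5 of the 28 genes (17.9%), which were Psmb5, Psmb6, Psmc6, Psmd9 and Psmd12, against 11.5% of 27025 genes. The windows of 4 of them follow, for both catalytic subunits, an ATPase and a lid subunit with the match, because the genes differ in their footprint values below. Capitals mark TGACNNNGC or its reverse complement GCNNNGTCA and, in Psmc6, also CCGGAAG. Bases that the annotation places in an exon are not shown.
Psmb6 (chr11:70525107-70525356, plus strand): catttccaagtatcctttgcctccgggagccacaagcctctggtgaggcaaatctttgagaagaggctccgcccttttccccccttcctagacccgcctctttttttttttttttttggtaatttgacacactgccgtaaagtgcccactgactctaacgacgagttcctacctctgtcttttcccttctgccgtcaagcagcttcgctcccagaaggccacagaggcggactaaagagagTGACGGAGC
Psmb5 (chr14:54618023-54618245, minus strand): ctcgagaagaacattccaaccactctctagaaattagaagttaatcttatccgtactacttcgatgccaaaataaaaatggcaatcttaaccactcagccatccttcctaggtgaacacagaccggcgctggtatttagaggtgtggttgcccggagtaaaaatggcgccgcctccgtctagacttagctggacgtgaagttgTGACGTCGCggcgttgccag
Psmc6 (chr14:45329574-45329787, plus strand): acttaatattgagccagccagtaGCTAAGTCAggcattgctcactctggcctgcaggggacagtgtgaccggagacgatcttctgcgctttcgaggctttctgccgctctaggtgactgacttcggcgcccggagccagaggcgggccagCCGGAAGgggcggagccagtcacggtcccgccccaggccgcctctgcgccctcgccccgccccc
Psmd12 (chr11:107479278-107479483, plus strand): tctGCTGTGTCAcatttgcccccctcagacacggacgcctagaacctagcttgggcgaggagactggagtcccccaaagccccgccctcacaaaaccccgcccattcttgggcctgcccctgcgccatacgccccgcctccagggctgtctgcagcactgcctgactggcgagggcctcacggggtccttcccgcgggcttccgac
The core of ETS-family sites, CCGGAAG, was in 9 of the 28 windows (32.1%), against 7.83% of all genes. The CCAAT box, CCAAT, was in 11 (39.3%), against 37.5%. The core of the interferon-stimulated response element, GAAANNGAA, was in 3 (10.7%), against 8.18%. A match of letters describes these windows only and was not tested against any binding data.

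The footprint libraries held 8401463 to 11487964 expected counts, and the RNA-seq libraries held 152195 to 219567. In a footprint library 3 counts, the limit set by counting error alone, came to between 0.261 and 0.357 CPM (counts scaled to the same library total), and in an RNA-seq library to between 13.7 and 19.7 CPM. Mettl5 itself stood at 4.08 and 4.79 footprint CPM in KO libraries, against 41.2 and 45.9 CPM in WT libraries. Its log2 fold change was -3.27 ± 0.22 (SE; adjusted p = 0.00131). The 8 pluripotency markers summed to 6600 and 6690 footprint CPM in KO libraries, against 5022 and 6942 CPM in WT libraries. Dppa5a had the highest level, at 2979 and 3313 CPM in KO libraries, against 1743 and 2994 CPM in WT libraries. None of the 8 was called, and 7 had a log2 fold change above 0. Zfp42 was below 0, at 754 and 691 CPM in KO libraries, against 1084 and 1096 CPM in WT libraries. Pou5f1 stood at 894 and 753 CPM in KO libraries, against 712 and 636 CPM in WT libraries. Markers of other cells differed between the genotypes. The 10 fibroblast markers summed to 416 and 591 CPM in KO libraries, against 178 and 77.8 CPM in WT libraries. Much of the sum was Col1a1, at 212 and 274 CPM in KO libraries, against 70.9 and 23.9 CPM in WT libraries. Of 7 tested genes 2 were called higher in KO, and the defining marker Lum was at 0 throughout. Thy1 went the other way, at 14.8 and 16.5 CPM in KO libraries, against 20.2 and 25.1 CPM in WT libraries (log2 fold change -0.51, not called). The 9 markers of extraembryonic endoderm summed to 146 and 195 CPM in KO libraries, against 475 and 595 CPM in WT libraries. All 7 tested genes had a log2 fold change below 0. Of these, 4 were called lower in KO, against 0.617% of all genes tested. Afp had no more than 1 count in any library. The part of these markers in the results was not tested.

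Proteasome genes together took a slightly smaller share of the footprints in KO than in WT cells. The share was 0.795% and 0.783% of all counts in KO libraries, against 0.904% and 0.908% in WT libraries. Each share rests on at least 74150 counts, and the Wilson 95% intervals, which cover counting error only, ran from 0.790% to 0.801% and from 0.778% to 0.788% in KO libraries, and from 0.898% to 0.909% and from 0.902% to 0.915% in WT libraries. The KO and WT shares did not overlap. The total includes Rn45s, the ribosomal RNA precursor, which took 10.6% and 15.2% of the counts in KO libraries, against 7.58% and 10.9% in WT libraries. A larger Rn45s count lowers the share of every other gene, and the same holds for CPM. In the fit with Rn45s left out, the median log2 fold change of the subunits was -0.15, against -0.16 with it. Both fits correct the library totals with TMM factors, which the shares and CPM do not, so these medians do not describe the shares. The part of Rn45s in the difference of the shares was not tested. In cultures taken whole, fewer cells of a type and less RNA per cell cannot be told apart. A footprint level also holds both the amount of mRNA and its use by ribosomes.

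Gene by gene, no constitutive subunit passed the test. The edgeR quasi-likelihood test with Benjamini-Hochberg adjustment over 12315 genes called 301 genes (2.44%) at an adjusted p below 0.05, 1.83% higher and 0.617% lower in KO, and 0 of the 34 subunits. At an unadjusted p below 0.05 it found 2387 genes (19.4%) and 2 subunits (5.88%), Psmc5 and Psmd12, and DESeq2 also called 0 subunits. With the replicate number as a block, 24% of all genes and 6 of the 34 subunits were called, all 6 lower in KO, although nothing in the labels states that the numbers pair libraries. The direction was still shared by most of the family. The log2 fold change was below 0 for 30 of 34 subunits, against 49.2% of all genes tested, and with chromosome medians removed for 27. The median over the subunits was -0.16, against 0.0063 over all genes tested, and the values ran from -0.51 to 0.25. Both KO libraries lay below both WT libraries for 25 of 34 subunits, against 25.5% of all genes tested. The opposite held for 1 subunit, Psmb1, against 24.3% of all genes tested.

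**Figure D1:**
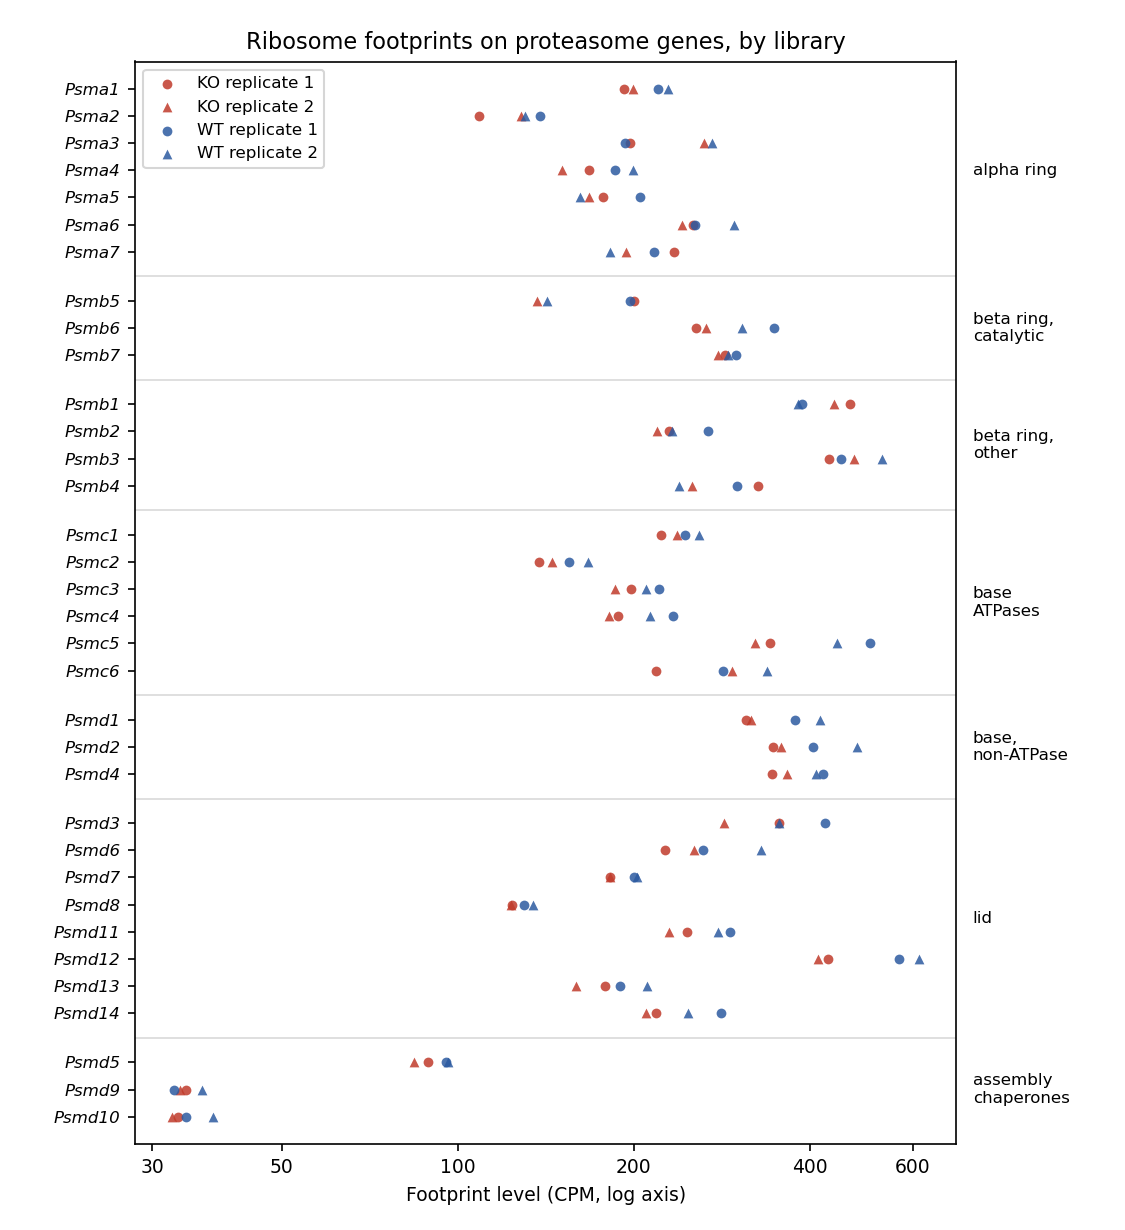
Footprint level in CPM (log axis) of the 34 constitutive proteasome subunits, 1 row per gene, in KO (red) and WT (blue) libraries; circles are replicate 1 and triangles replicate 2. In the ATPase, scaffold and lid rows the red points mostly lie left of the blue ones, by the widest distance for Psmc5 and Psmd12. Some core rows mix both colours.

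The alpha ring, which holds the gate of the barrel, had a median close to that of the whole family. Of its 7 genes, 5 had a log2 fold change below 0, and 0 were called. The median was -0.15, against -0.16 over all 34 subunits. With chromosome medians removed it was -0.19, with 6 below 0. Both KO libraries lay below both WT libraries for 4 of the 7, against 25.5% of all genes tested. Psma4 stood at 168 and 151 CPM in KO libraries, against 186 and 199.7 CPM in WT libraries, and its groups did not overlap. Its log2 fold change of -0.26 ± 0.14 (SE; adjusted p = 0.364) was the lowest of the ring. Psma7 stood at 234 and 194 CPM in KO libraries, against 217 and 182 CPM in WT libraries. Its groups overlapped and its log2 fold change, the highest of the ring, was 0.11 ± 0.16 (SE; adjusted p = 0.760). The levels of the other 5 alpha subunits ran from 109 to 264 CPM in KO libraries, against 131 to 297 CPM in WT libraries.

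The 3 catalytic beta subunits each have a preference among peptide bonds. Psmb5, the chymotrypsin-like subunit and main target of bortezomib, stood at 201 and 137 CPM in KO libraries, against 197 and 142 CPM in WT libraries. Replicate 1 was high and replicate 2 low in both genotypes, and the genotypes overlapped almost fully, and the fitted log2 difference was -0.0036 ± 0.21 (SE; adjusted p = 0.995). Its 95% interval ran from -0.48 to 0.47.

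Psmb6, the caspase-like subunit, stood at 256 and 266 CPM in KO libraries, against 348 and 306 CPM in WT libraries. Both KO values lay below both WT values, and the log2 fold change was -0.31 ± 0.16 (SE; adjusted p = 0.328). Psmb6 lies on chromosome 11, whose genes were lower as a whole in KO, and with chromosome medians removed its value was -0.055. Psmb7, the trypsin-like subunit, stood at 286 and 279 CPM in KO libraries, against 299 and 290.1 CPM in WT libraries. The values were close together in all 4 libraries, without overlap, and the log2 fold change was -0.048 ± 0.15 (SE; adjusted p = 0.901).

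The 4 beta subunits without an active site held both the highest positive value of the family and some of its highest levels. Psmb1 stood at 468 and 441 CPM in KO libraries, against 388 and 382 CPM in WT libraries. It was the subunit with both KO libraries above both WT libraries, at a log2 fold change (± SE) of 0.25 ± 0.15 (adjusted p = 0.404). Psmb2 stood at 229.5 and 219.6 CPM in KO libraries, against 268 and 233 CPM in WT libraries, with a log2 fold change (± SE) of -0.14 ± 0.15 (adjusted p = 0.662). Psmb3 stood at 432 and 476 CPM in KO libraries, against 453 and 532 CPM in WT libraries, and its groups overlapped. Over the 14 core subunits the median log2 fold change was -0.090, with 10 below 0. The groups did not overlap for 7 lower genes and 1 higher gene. Over all genes tested these shares were 25.5% lower and 24.3% higher.

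The base of the regulatory particle was lower in KO libraries in all of its 9 genes, none of them past the test. Its 6 ATPases form the ring that unfolds substrates and threads them into the barrel. Psmc5 stood at 342 and 323 CPM in KO libraries, against 508 and 445 CPM in WT libraries. The KO and WT values lay far apart, the fold was 0.703, and the log2 fold change of -0.51 ± 0.16 (SE; 95% interval -0.86 to -0.16; adjusted p = 0.128) was the lowest of all 34 subunits. Psmc5 also lies on chromosome 11, and with chromosome medians removed its value was -0.25 (adjusted p = 0.458).

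Psmc1, the ATPase with the smallest difference, stood at 222 and 237 CPM in KO libraries, against 245 and 259 CPM in WT libraries, and its log2 fold change (± SE) was -0.12 ± 0.15 (adjusted p = 0.730). In 5 of the 6 ATPases both KO libraries lay below both WT libraries, against 25.5% of all genes tested. The exception was Psmc6, at 218 and 294 CPM in KO libraries, against 284 and 338 CPM in WT libraries, where replicate 2 was the higher in each genotype. The median over the 6 was -0.21.

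Psmd1 and Psmd2 are the large scaffolds of the base, and Psmd4 (Rpn10) is a receptor that binds ubiquitin chains. Psmd1 stood at 311 and 318 CPM in KO libraries, against 378 and 417 CPM in WT libraries. Its groups did not overlap, and its log2 fold change (± SE) was -0.32 ± 0.15 (adjusted p = 0.295). Psmd2 stood at 347 and 357 CPM in KO libraries, against 405 and 482 CPM in WT libraries. Psmd4 stood at 345 and 366 CPM in KO libraries, against 422 and 411 CPM in WT libraries, with a log2 fold change (± SE) of -0.21 ± 0.15 (adjusted p = 0.498). All 3 had every KO value below every WT value, against 25.5% of all genes tested. Psmd1 shares 301 exon bases with the protein-coding Gm21972 on the same strand and 252 with Htr2b on the other strand.

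The lid had the same pattern in all 8 of its genes, and in 6 with chromosome medians removed. The median log2 fold change was -0.26, and -0.19 with chromosome medians removed, and 0 were called. Both KO libraries lay below both WT libraries for 8 of 8 genes, against 25.5% of all genes tested. Psmd12 (Rpn5), a structural lid subunit, stood at 429.7 and 414 CPM in KO libraries, against 569 and 615 CPM in WT libraries. The fold was 0.719 and the log2 fold change -0.48 ± 0.15 (SE; 95% interval -0.82 to -0.13; adjusted p = 0.140). Psmd12 lies on chromosome 11 too, and its value with chromosome medians removed was -0.22 (adjusted p = 0.512). Psmd14 (Rpn11), the metalloprotease that cuts off the ubiquitin chain, lies on chromosome 2. It stood at 218 and 210.1 CPM in KO libraries, against 283 and 248 CPM in WT libraries, and its log2 fold change (± SE) was -0.30 ± 0.15 (adjusted p = 0.332).

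Psmd8 had the smallest lid difference, at 124 and 123 CPM in KO libraries, against 129.9 and 134 CPM in WT libraries. Its log2 fold change was -0.083 ± 0.14 (SE; adjusted p = 0.804). The other 5 lid genes, Psmd3, Psmd6, Psmd7, Psmd11 and Psmd13, had log2 fold changes from -0.29 to -0.13.

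The rule also took 3 genes whose products are not subunits of the finished particle but chaperones that assemble the base. Psmd5 stood at 88.9 and 84.0 CPM in KO libraries, against 95.4 and 96.1 CPM in WT libraries. Psmd9 stood at 34.2 and 33.5 CPM in KO libraries, against 32.7 and 36.4 CPM in WT libraries. Psmd10 (gankyrin) stood at 33.1 and 32.5 CPM in KO libraries, against 34.2 and 38.1 CPM in WT libraries. The values of Psmd9 overlapped, those of the other two did not, and the log2 fold changes were -0.13 ± 0.15 for Psmd5, -0.015 ± 0.18 for Psmd9 and -0.13 ± 0.18 for Psmd10 (SE; adjusted p = 0.670, 0.974 and 0.756). Psmd9 shares 1849 exon bases with the opposite-strand Gm26745, and it is not known here whether the counting used strand.

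**Figure D2:**
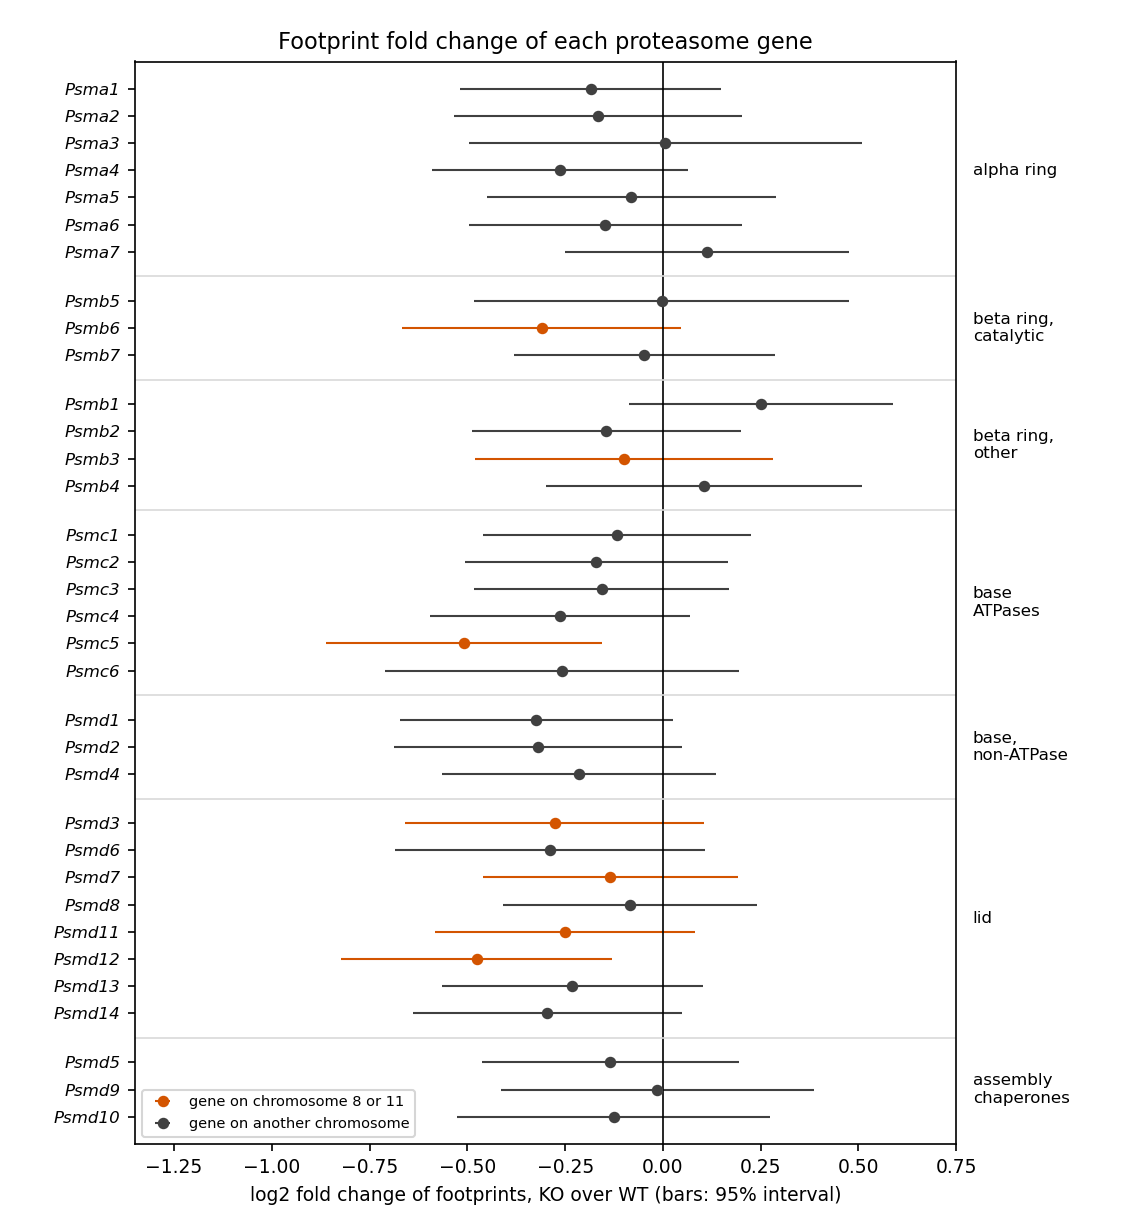
Log2 fold change of footprints, KO over WT, for the 34 subunits (points) with 95% intervals (bars) from the edgeR fit; orange marks genes on chromosomes 8 or 11. The intervals of Psmc5 and Psmd12 exclude 0, those of the other 32 genes hold it, and no interval reaches -1 or 1.

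The precision of the comparison was set by these intervals. The lowest bound of any subunit was -0.86, a fold of 0.550, and the highest was 0.59, a fold of 1.50. The rule took 17 genes of the 19S particle other than the chaperones. All 17 had a log2 fold change below 0, against 49.2% of all genes tested, and 15 with chromosome medians removed. Their medians were -0.26 and, with chromosome medians removed, -0.24. The 19S subunits Adrm1 and Shfm1, given below, are outside the rule and not among the 17. The summed CPM of these 17 over that of the 14 core genes was 1.21 and 1.25 in KO libraries, against 1.42 and 1.48 in WT libraries. On chromosomes other than 6, 8 and 11, with 12 genes in each sum, the ratio was 0.955 and 1.06 in KO libraries, against 1.12 and 1.24 in WT libraries. The KO and WT ratios did not overlap in either form, and the difference between the particles was not tested.

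The level of whole chromosomes moved with these values. Chromosome 6 had a median of -0.38 (log2 fold change, 536 genes), chromosome 11 of -0.25 (999 genes) and chromosome 8 of -0.22 (643 genes), against -0.015 to 0.10 on the other chromosomes. Among the subunits, 6 lie on chromosome 11 (Psmb3, Psmb6, Psmc5, Psmd3, Psmd11 and Psmd12), 1 on chromosome 8 (Psmd7) and none on chromosome 6. Their median was -0.28, and -0.022 with chromosome medians removed. The 27 subunits on the other chromosomes had a median of -0.15, with 23 below 0. The part of the chromosome difference in each gene's value was not tested.

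Libraries with the same replicate number carry the same tag in their deposited names, which reads like a date, and the labels do not say what the number marks. Within the numbers, KO lay below WT in both for 27 of 34 subunits, against 36.6% of all genes tested. It lay above WT in both for 3, Psma7, Psmb1 and Psmb4, against 34.7% of all genes tested. The remaining 4, Psma3, Psma5, Psmb5 and Psmd9, had opposite signs. The differences, on the scale of log2(CPM + 0.5), had medians of -0.17 in replicate 1 and -0.20 in replicate 2. Over all genes tested the medians were 0.039 in replicate 1 and -0.058 in replicate 2. These differences carry no TMM factors, so the order of the 2 replicates should not be read from them. Psmc5 differed by -0.57 and -0.47, Psmd12 by -0.41 and -0.57, and Psmb1 by 0.27 and 0.21.

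The gap from replicate 1 to replicate 2 had the same sign in both genotypes for 22 of the subunits. That share was not taken over all genes, where the deviations of same-numbered libraries correlated at 0.433. The median gap of the subunits was -0.046 in KO and 0.014 in WT. It was -0.55 in KO and -0.47 in WT for Psmb5, and 0.42 in KO and 0.49 in WT for Psma3. These gaps, which include the largest of each genotype, were about as large as the largest differences between genotypes.

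**Figure D3:**
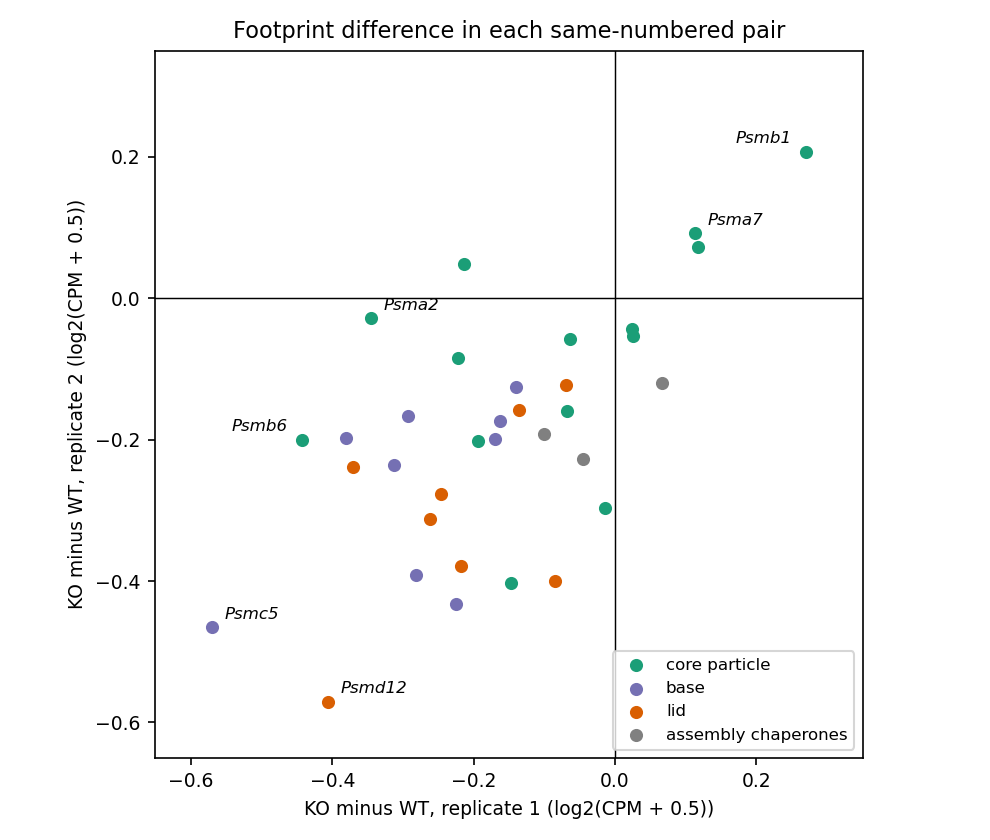
KO minus WT difference of log2(CPM + 0.5) in replicate 1 (horizontal) and replicate 2 (vertical), 1 point per subunit, coloured by place in the proteasome. The base (purple) and lid (orange) points all lie in the lower left, Psmc5 and Psmd12 farthest out, and Psmb1, Psma7 and Psmb4 lie in the upper right.

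Subunits of 1 particle are built into it in equal numbers, and their footprint density, the level per length, can be set side by side. Per kilobase of coding sequence, Psmb3 was the highest at 738 CPM per kb in KO and 800.5 CPM per kb in WT libraries (means, n = 2 each). Psma2 was the lowest core subunit by its mean, at 169 CPM per kb in KO, against 191 CPM per kb in WT. The highest over the lowest core density was 4.54 and 4.48 in KO libraries, against 3.74 and 4.82 in WT libraries. Per kilobase of the deposited effective length, which holds untranslated sequence too, the same ratio was 5.15 and 4.81 in KO libraries, against 4.55 and 5.47 in WT libraries.

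In the ATPase ring, Psmc5 was densest at 273 CPM per kb of coding sequence in KO, against 392 CPM per kb in WT, and Psmc2 least dense at 99.3 CPM per kb in KO, against 113 CPM per kb in WT. Psmc5 lay at 1.70 times the median of the ring in KO and 2.12 times in WT. In the lid, Psmd12 was densest at 308 CPM per kb in KO, against 433 CPM per kb in WT, and Psmd8 least dense at 117 CPM per kb in KO, against 125 CPM per kb in WT. The 3 chaperones lay between 47.3 and 57.2 CPM per kb in KO, against 51.9 and 63.3 CPM per kb in WT, below every subunit. In the CCT chaperonin, another complex of equal subunits, the highest over the lowest density was 1.61 and 1.46 in KO libraries, against 1.50 and 1.41 in WT libraries, over 7 of its 8 subunits because Cct6a had no coding length. By effective length, over all 8, it was 1.98 and 1.63 in KO libraries, against 1.78 and 1.50 in WT libraries. The COP9 signalosome, a complex related to the lid, had a wider range than CCT. Its ratio by coding length was 5.06 and 4.11 in KO libraries, against 5.25 and 3.86 in WT libraries. By effective length it was 12.7 and 10.3 in KO libraries, against 13.2 and 8.81 in WT libraries. Cops7b was its lowest gene in every library. Coding length was an alternative added after the data were seen, and no density was tested.

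**Figure D4:**
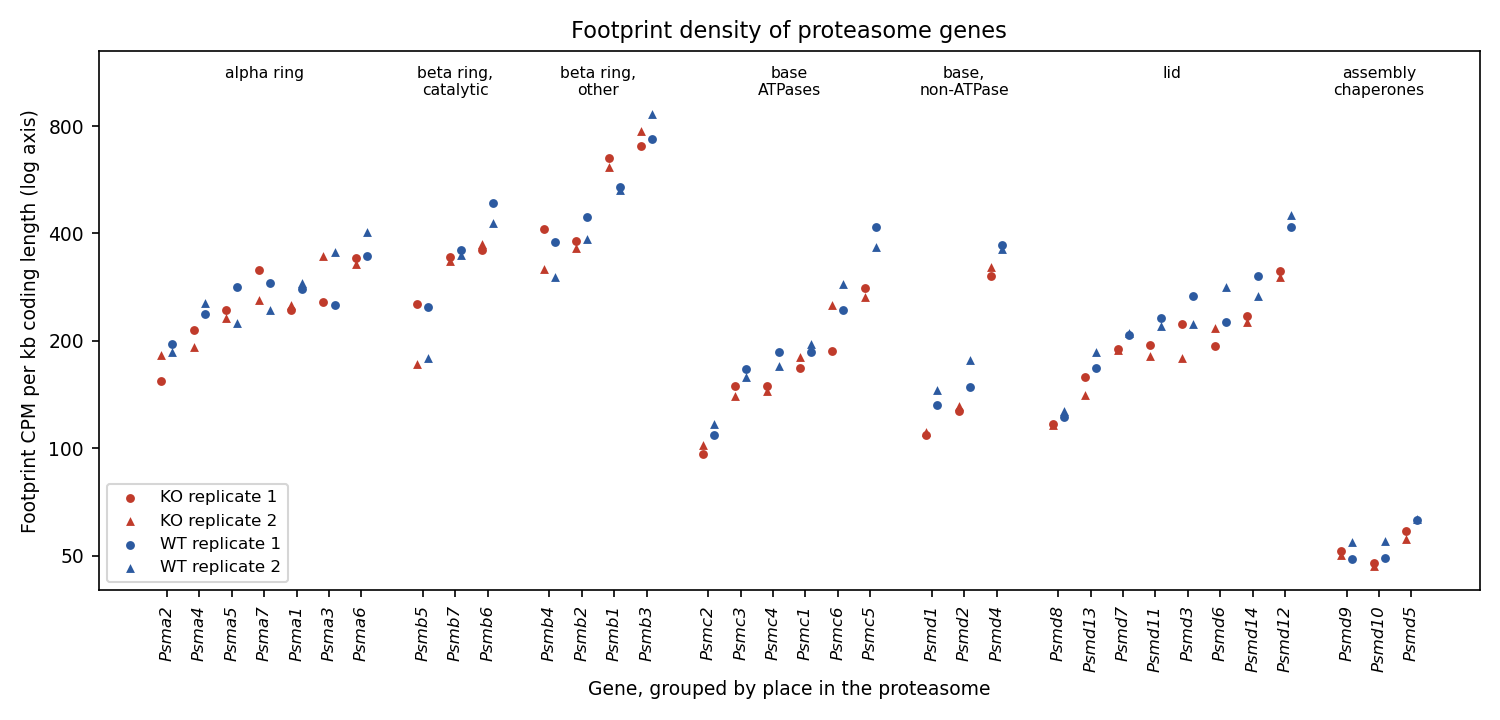
Footprint CPM per kilobase of coding length (log axis) for each subunit, KO (red, left of each pair) and WT (blue, right); circles are replicate 1 and triangles replicate 2, and genes are sorted within their group. The spread within a ring or lid is wider than the distance between KO and WT points, and the 3 assembly chaperones lie below all others.

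The RNA-seq tables gave no usable level for the family. The 34 genes together had 51 and 49 counts in KO libraries, against 56 and 89 counts in WT libraries, or 0.0335% and 0.0284% of the counts in KO, against 0.0265% and 0.0404% in WT. Of the 34 genes, 29 had at most 5 counts in every library, and Psmb2 had none in any. Psmd2, the gene with most, had 4 and 6 counts in KO libraries, against 9 and 7 counts in WT libraries. No subunit passed the filter on low counts, so 0 of the 34 were among the 2087 genes tested in RNA-seq (133 called, 6.37%) or the 1458 tested for translational efficiency, footprints relative to RNA-seq (135 called, 9.26%). The share of the family was also far lower than in the footprint libraries, where it was 0.783% to 0.908%, and the reason was not tested. Whether the footprint values came with a difference in mRNA was not detectable with so few counts.

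Among the other genes of the pathway, Psmb8 had more footprints in KO libraries, with few counts in WT libraries. Psmb8 (LMP7) is the immunoproteasome subunit that takes the place of Psmb5 and is known to be induced by interferon gamma. It stood at 5.90 and 9.49 footprint CPM in KO libraries, against 0.669 and 0.714 CPM in WT libraries, which are 164 and 13 counts in sum. The KO values were all far above the WT values, and the log2 fold change was 3.49 ± 0.43 (SE; adjusted p = 0.00907). Its WT counts were 7 and 6, so it passed the filter on low counts through the KO libraries only. The call thus rests on the libraries where the gene was high, and at a mean count of at least 50 it was not tested. With limma on log2(TPM + 1) the adjusted p was 0.0147. Without 1 library the log2 fold change ran from 3.04 to 3.82. Psmb8 shares 498 exon bases with the opposite-strand Gm20496.

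Measured per coding length, Psmb8 made up 2.74% and 6.22% of the sum of Psmb8 and Psmb5 in KO libraries, against 0.324% and 0.479% in WT libraries. The other 2 inducible subunits were not called. Psmb9, the counterpart of Psmb6, stood at 3.75 and 3.31 CPM in KO libraries, against 3.15 and 2.02 CPM in WT libraries (log2 fold change 0.44, adjusted p = 0.549). Psmb10, the counterpart of Psmb7, stood at 42.3 and 53.3 CPM in KO libraries, against 60.4 and 63.4 CPM in WT libraries (log2 fold change -0.35, adjusted p = 0.350). It lies on chromosome 8, and with chromosome medians removed its value was -0.13. Of the 5 genes of this list 4 were tested and 1 was called, against 2.44% of all genes tested.

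**Figure D5:**
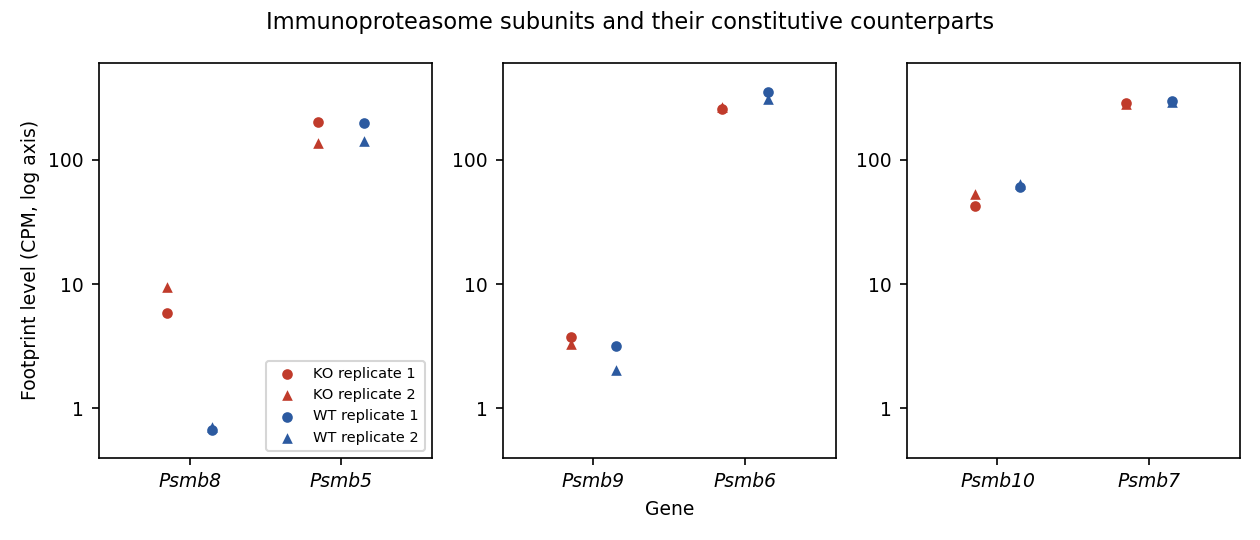
Footprint CPM (log axis) of the 3 immunoproteasome subunits, each beside the constitutive subunit it replaces, in KO (red, left) and WT (blue, right) libraries; circles are replicate 1 and triangles replicate 2. Psmb8 lies at 5.90 and 9.49 CPM in KO, against 0.669 and 0.714 CPM in WT, and all 3 inducible subunits stay below their constitutive counterparts.

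No gene passed the test in the lists of proteasome regulators and partners given here. Of the 5 activators and inhibitors (Psme1 to Psme4 and Psmf1), 0 were called, and the smallest p was that of Psme3, a cap of the core particle, at a log2 fold change (± SE) of -0.46 ± 0.17 (adjusted p = 0.191). Psme3 stood at 110.4 and 128 CPM in KO libraries, against 151 and 181 CPM in WT libraries, and it lies on chromosome 11. With chromosome medians removed its value was -0.20 (adjusted p = 0.607). Of the 5 core assembly chaperones 0 were called, with Psmg4 at a log2 fold change (± SE) of 0.49 ± 0.20 (adjusted p = 0.216). The 2 further 19S subunits, the ubiquitin receptor Adrm1 and Shfm1 (Sem1), were not called, at log2 fold changes of -0.070 and -0.17. Neither were any of 8 other associated proteins, where the deubiquitinase Usp14 had -0.27 ± 0.14 (SE; adjusted p = 0.349), or of 6 shuttle receptors that bring substrates.

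None of the 5 genes in the list drawn up around NRF1 was called. They were Nfe2l1, the related factors Nfe2l2 and Nfe2l3, Ngly1 and Vcp. Of these, 3 had a log2 fold change above 0 and 2 below 0. Nfe2l1 itself stood at 173 and 196 CPM in KO libraries, against 166 and 179 CPM in WT libraries, with a log2 fold change of 0.11 (adjusted p = 0.750). It lies on chromosome 11, and with chromosome medians removed its value was 0.37 (adjusted p = 0.288). Vcp, the segregase that extracts NRF1 and many ubiquitinated proteins, stood at 798 and 803 CPM in KO libraries, against 1042 and 1133 CPM in WT libraries. Its groups did not overlap, and its log2 fold change (± SE) was -0.43 ± 0.16 (adjusted p = 0.187).

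The same values were taken in a pair of other multisubunit complexes. The COP9 signalosome, which is related to the lid, had a median log2 fold change of -0.18 over 9 genes, with 7 below 0, 0 called and -0.017 with chromosome medians removed. The CCT chaperonin had a median of -0.21 over 8 genes, with 8 below 0, 0 called and -0.20 with chromosome medians removed. The differences between the complexes were not tested.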

How the data were processed

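Ribo-seq and RNA-seq were compared between METTL5 KO and WT mouse embryonic stem cells, 2 libraries for each. The mm10 build, RSEM and Bowtie2 2.3.4.3 come from the submitters' processing notes, which state no strand or alignment settings. The authors deposited RSEM expected counts, per the file headers, which divide reads that fit several genes, beside TPM and gene lengths. The authors' deposited TPM values entered 1 alternative and the density check.

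Expected counts were rounded and tested with edgeR 4.0.16 (TMM factors, filterByExpr, robust quasi-likelihood fit, Benjamini-Hochberg adjustment over all genes tested), each assay apart and translational efficiency as the interaction of assay and genotype over all 8 libraries. CPM is the expected count over the library total, Rn45s included. In the footprint libraries 23 of the 34 subunits had counts whole within 0.05 and 11 did not, and 9 share exon bases with another gene in GENCODE M21. Depth ran from 8401463 to 11487964 counts in Ribo-seq and from 152195 to 219567 in RNA-seq. Replicates differed by more than sampling noise, with a chi-square per degree of freedom of 21.3 in KO and 24.1 in WT Ribo-seq, and 2.96 in KO and 7.02 in WT RNA-seq. Density was planned per protein length. No protein table was used here, so the effective length stood in, and GENCODE coding length was added.

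The subunits and gene lists were chosen with earlier results of these data known. Named genes were the highest and lowest fold change of each group, the catalytic subunits, Psmd4, Psmd14, the chaperones, and from each pathway list the called genes and the smallest p. Psmd2, Psmc6, Psmb9, Psmb10, Adrm1, Nfe2l1 and the extremes of density and replicate gaps were added after their values were seen. Alternatives were DESeq2 1.42.0, RLE factors, limma 3.58.1 on log2(TPM + 1), Rn45s left out, chromosome medians removed, other filters, a replicate block and leaving out each library. The edgeR fits with and without the block, the DESeq2 fit and the edgeR fit of translational efficiency were first run on simulated data. In these data 200 genes had known fold changes, all larger than those of the subunits. The other alternatives were not simulated. Results of some pathway genes that this rule takes are not reported here.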

Additional observations from a re-analysis of the deposited data

How the results depend on the processing

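The footprint test called 301 genes, and 172 with limma on log2(TPM + 1), 186 at a mean count of at least 50, 1110 with no filter on low counts and 2960 with the replicate block. Leaving out 1 library gave 189 (without KO replicate 2) to 761 (without WT replicate 1). No subunit was called in any of these except the replicate block, which called 6, all lower in KO (Psmb6, Psmc5, Psmd1, Psmd2, Psmd12 and Psmd14), against 11.3% of all genes lower. The labels do not say that the numbers pair the libraries, and the fit of 4 libraries with a block leaves 1 residual degree of freedom per gene. The deviations of same-numbered libraries correlated at 0.433 over 12315 genes. The median log2 fold change of the subunits was -0.16, -0.18 with limma on TPM and between -0.22 and -0.13 without 1 library.

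Values near 0 turned their sign. Psmb5 (-0.0036) stood at 0.0040 with Rn45s left out, 0.012 with chromosome medians removed, 0.015 at a mean count of at least 50, and between -0.25 and 0.26 without 1 library. Psmb3 (-0.10) stood at 0.15 with chromosome medians removed and between -0.22 and 0.013 without 1 library. Psmd9 (-0.015) stood at 0.0013 at a mean count of at least 50 and between -0.087 and 0.058 without 1 library, and Psma7 (0.11) between -0.014 and 0.25. The highest over lowest core density, averaged over libraries, was 4.99 by effective and 4.40 by coding length. The log2 fold change of Psmb8 ran from 2.50 to 3.82.

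RNA-seq called 133 genes, 75 with DESeq2 and 73 to 242 without 1 library. Translational efficiency called 135, and 18 to 154 without 1 library. With no filter on low counts, 33 subunits entered either test and 0 were called. Among the pathway genes named, the block also called Psmb10, Psme3, Psmg4 and Vcp. The cause of these shifts was not tested.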

Other observations

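Psmb11, the thymus-specific catalytic subunit, had 0 and 2.06 footprint counts in KO libraries, against 0 in both WT libraries, yet 59.5 and 76.8 RNA-seq counts in KO, against 63.2 and 148 counts in WT. It thus had more RNA-seq counts than all 34 constitutive subunits together in each library (51 and 49 in KO, against 56 and 89 in WT).

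Rn45s, the ribosomal RNA precursor, took 10.6% and 15.2% of the footprint counts in KO libraries, against 7.58% and 10.9% in WT libraries.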
